A study of Drosophila melanogaster with 12 samples.

Results

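The comparison described here is between wing discs cultured with a high and a low level of the insect moulting hormone. It takes the 3 RNA-seq libraries labelled 2000 nM and the 3 labelled 20 nM, 6 of the 12 libraries of the series, and every gene with a normalised count of at least 10 in at least 3 of these 6 libraries. That left 8206 of the 12216 genes in the table. The animals were Drosophila melanogaster of the w1118 strain, used as wild type. The tissue was the wing imaginal disc, a sac of larval epithelium that becomes the adult wing and notum, with discs taken 24 h after the moult to the third instar. The discs were cultured for 2.5 h at 25 °C in Dye medium that held 20 nM or 2000 nM of 20-hydroxyecdysone (20E), the form of ecdysone that acts on cells, and all groups shared the strain, age, medium and culture. Discs with 0 and 200 nM, also with 3 libraries each, are used only to place the levels. Whether a replicate was its own culture or its own set of animals is not in the labels, and p-values here cover no more than the spread among libraries. The 3 replicates are called low-dose library 1, 2 and 3 at 20 nM and high-dose library 1, 2 and 3 at 2000 nM.

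Ecdysone enters cells and binds a heterodimer of the nuclear receptors EcR and Usp, which represses target genes without the hormone and activates them with it. The first targets are mostly transcription factors, several of them nuclear receptors themselves, and these control later effector genes in the order known from the salivary gland and other tissues. In the wing disc the hormone is known both to be needed for growth and patterning during larval life and, at the peak that ends larval life, to drive the change to eversion, cuticle formation and differentiation.

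The 6 libraries held 9034719 to 27006374 reads, and 1 read was worth 0.565 to 1.69 normalised counts over the 12 libraries, so low counts are the least precise. On the log2 scale, across genes, which are not independent replicates, libraries correlated at 0.988 to 0.9953 within 20 nM, at 0.9857 to 0.9913 within 2000 nM and at 0.965 to 0.9783 between them. Principal component 1 held 58% of the variance and separated the doses. All 9 wing disc markers looked up had reads in all 6 libraries, so the defining markers of the labelled tissue were present.

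At 2000 nM, 706 genes were higher and 686 lower than at 20 nM by limma with a Benjamini-Hochberg adjusted p under 0.05, which is 8.6% and 8.36% of the genes tested and 17% together. These genes are the ones said below to have risen or fallen. List counts below are to be read beside these shares of all genes. A list close to them moved about as often as the genes tested as a whole. The median log2 difference over all genes tested was -0.003 and its median standard error 0.107, and 33.2% of the genes tested had groups that did not overlap. Most changes were small, with a median size of 0.54 on the log2 scale among the genes that rose and 0.44 among those that fell. The tails were unequal. At least 2-fold higher were 198 genes, 2.41% of those tested, and at least 2-fold lower were 98, or 1.19%. At least 8-fold higher were 21 genes and at least 8-fold lower were 4. Genes that rose took 8.12% of all normalised counts at 20 nM and 13% at 2000 nM, while genes that fell took 8.18% and 5.78%.

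**Figure D1:**
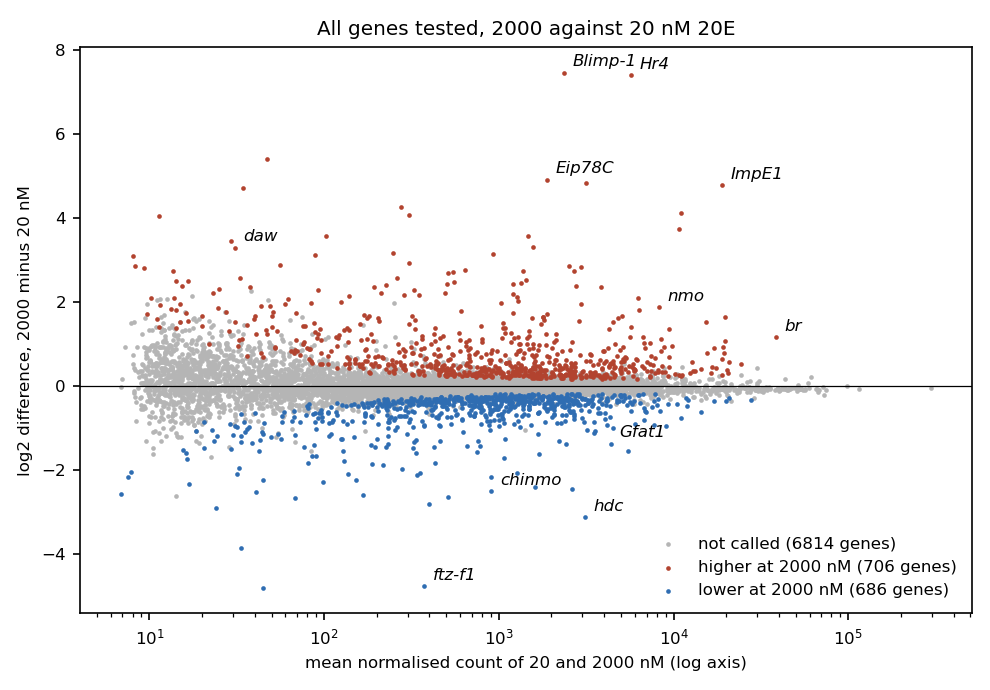
Each point is 1 of the 8206 genes tested, with its mean normalised count at 20 and 2000 nM on a log axis and its log2 difference, 2000 minus 20 nM. The 706 genes that rose are red, the 686 that fell blue and the others grey, and among the named genes Blimp-1 and Hr4 lie highest and ftz-f1 lowest.

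The largest rise in the comparison was that of Blimp-1, and ftz-f1 had one of the largest falls. Blimp-1 is a zinc finger repressor induced by the hormone, and ftz-f1 encodes a nuclear receptor that gives prepupal tissues competence to respond, with Blimp-1 known to repress it in the fly prepupa. Blimp-1 was at 65.8, 13.6 and 18.3 normalised counts in the 3 libraries at 20 nM and at 5495, 4375 and 4170 at 2000 nM. That is 175-fold higher (log2 difference 7.45 ± 0.445 SE, adjusted p = 4.47e-08), and 8.12 on the log2 scale without low-dose library 1. ftz-f1 was at 658, 678 and 809 at 20 nM and at 16.1, 15.8 and 63.1 at 2000 nM, 27-fold lower (-4.76 ± 0.380, adjusted p = 8.64e-07). The groups did not overlap for either gene, and high-dose library 3 held the most ftz-f1 of its group; without it the log2 difference was -5.39. Of the ftz-f1 exon length, 29.4% is shared with the non-coding RNA gene CR45939, and the reads there cannot be assigned to one of them.

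Among the 16 hormone receptor and other nuclear receptor genes tested, 7 rose and 3 fell, with a median log2 difference of 0.122. Hr4, a receptor of the early-late class, went from 86, 46.4 and 73.1 normalised counts at 20 nM to 12332, 10688 and 11148 at 2000 nM, or 169-fold higher (7.40 ± 0.162, adjusted p = 2.59e-12). Eip78C, a relative of the Rev-erb receptors, went from 155, 106 and 106 to 3366, 3591 and 3997, 30-fold higher (adjusted p = 8.61e-11). For both genes every 2000 nM library lay far above every 20 nM library. Smaller rises were those of Hr39 (2353 ± 155 to 7228 ± 482, mean ± SD, n = 3 each), Eip75B, svp, knrl and Hr78.

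Eip75B, an early gene whose protein is a haem-binding receptor, showed another balance between the doses. Its libraries were at 5313, 4692 and 4574 at 20 nM and at 10245, 8779 and 10633 at 2000 nM, a 2.03-fold rise (adjusted p = 2.18e-05). Its mean without hormone was 104, and its log2 difference of 20 from 0 nM was 5.53 beside 1.02 of 2000 from 20 nM. For Hr4 the mean without hormone was 23.3, and these log2 differences were 1.47 and 7.40. EcR itself fell, from 2887, 2657 and 2795 to 1689, 1315 and 1578, or 1.83-fold (-0.87 ± 0.090, adjusted p = 1.1e-05). For usp, the partner of EcR, the values overlapped, with means of 1449 ± 5.96 and 1526 ± 98.8 (log2 difference 0.07, 95% interval -0.07 to 0.21). Hr38 also fell, from 25.6 ± 6.49 to 7.2 ± 2.97, though without low-dose library 2 its adjusted p was 0.0503. Hr3 was below the filter, with means of 0.639 and 7.12.

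Of 14 early and early-late transcription factor genes tested, 6 rose (Blimp-1, bip1, Sox14, cbt, br and tai) and 4 fell (Pdp1, Kr-h1, Eip74EF and rig). The call of cbt ended in each of the 6 fits without 1 library, with adjusted p from 0.0541 to 0.168. br, the BTB zinc finger gene broad that directs pupal development, was at 27962, 21536 and 22209 at 20 nM and at 62024, 46654 and 52144 at 2000 nM, a 2.24-fold rise (adjusted p = 2.52e-05). Sox14, an HMG-box factor of the early response, rose 2.77-fold, from 926 ± 36 to 2567 ± 82.1 (adjusted p = 2.63e-09). The tai gene, for a coactivator of EcR, rose by 0.52 ± 0.084 on the log2 scale (adjusted p = 0.000588).

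Eip74EF, an ETS factor and classic early puff gene, went the other way. Its 20 nM libraries were at 2498, 2190 and 2144 and its 2000 nM libraries at 1662, 1427 and 1461, a fall of 0.59 on the log2 scale (SE 0.078, adjusted p = 0.000115) with no overlap. Its means were 539 without hormone and 1222 at 200 nM, so the 20 nM group held the highest level of the 4. Kr-h1, known for its response to juvenile hormone, fell from 564 ± 138 to 328 ± 49.4, but 78.6% of its exon length is shared with CG45075, and its adjusted p was 0.0583 without low-dose library 1 and 0.0537 without high-dose library 3. Eip93F, which acts late in metamorphosis, was below the filter, at means of 4.28 and 5.02.

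**Figure D2:**
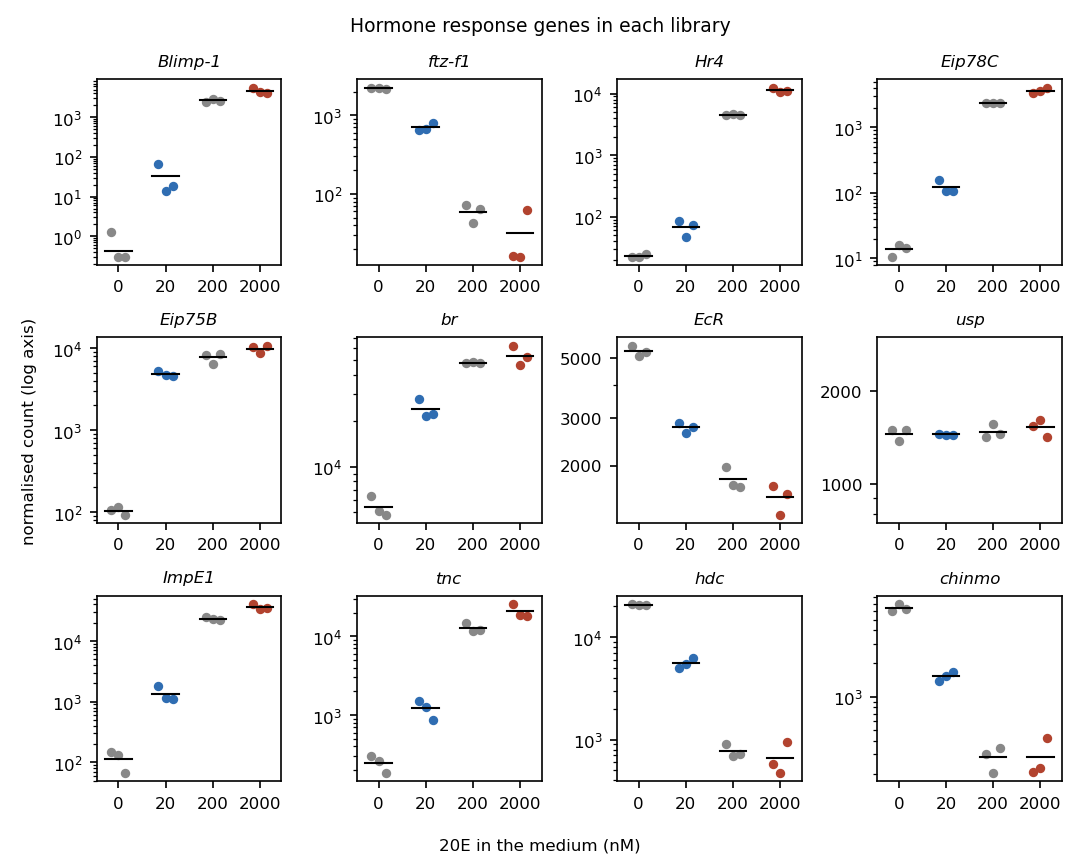
Normalised counts (log axis) of 12 hormone response genes in each library at 0, 20, 200 and 2000 nM 20E, with a bar at the mean of 3 libraries, blue points for 20 nM and red for 2000 nM; values under 0.3 are drawn at 0.3. Blimp-1, Hr4, Eip78C, ImpE1 and tnc step up most between 20 and 200 nM, ftz-f1, hdc and chinmo are lower at 20 than at 0 nM and lower again at 200 nM, and usp lies between 1421 and 1617 in the 6 libraries compared.

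Of 11 hormone-inducible effector genes tested, 6 rose and 2 fell, with a median log2 difference of 1.51. ImpE1, for a membrane protein linked to disc morphogenesis, was at 1806, 1159 and 1088 at 20 nM and at 40743, 33626 and 34973 at 2000 nM, or 27.6-fold higher (adjusted p = 7.06e-09). ImpE2, a secreted product of everting discs, rose from 1575 ± 731 to 19757 ± 2995, and Cyp18a1, the enzyme that inactivates 20E, from 215 ± 51.5 to 6104 ± 593, or 28.6-fold. Each 2000 nM library was above every 20 nM library for all of these. ImpL2, for a secreted protein that binds insulin-like peptides, rose 5.59-fold, but 61.9% of its exon length is shared with CG46460. The fifth and sixth to rise were Pdk1, the kinase that activates Akt, at 2819 ± 295 and 9835 ± 476, and ImpE3, at 44.8 ± 0.976 and 130 ± 15.

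The 2 effector genes that fell were DOR and Eip55E. DOR, a coactivator of EcR known from autophagy in fat body, was at 815, 896 and 877 at 20 nM and at 90, 107 and 265 at 2000 nM, a 6.25-fold fall (adjusted p = 1e-05). High-dose library 3 was again the highest of its group. Of 13 genes for ecdysteroid synthesis, transport and inactivation tested, 2 rose and 1 fell. Besides Cyp18a1, phm, for a hydroxylase of ecdysone synthesis, rose from 74.3 ± 5.22 to 350 ± 59.5 (adjusted p = 7.82e-06). Oatp74D, the ecdysone importer, fell by 0.43 on the log2 scale, from 2486 ± 178 to 1841 ± 66.3 (adjusted p = 0.000395).

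Genes of temporal identity, which mark a tissue's developmental age, and of growth restraint moved in both directions, with 4 of 11 tested higher and 3 lower. chinmo, a BTB factor that maintains larval identity and gives way to broad, was at 1378, 1529 and 1679 at 20 nM and at 206, 224 and 425 at 2000 nM, a 5.63-fold fall (-2.49 ± 0.229, adjusted p = 3.36e-06). hdc, the headcase gene, a marker of imaginal cells, was at 5008, 5469 and 6268 and then at 581, 473 and 948, an 8.69-fold fall (adjusted p = 5.11e-08). The groups were far apart for both, and high-dose library 3 was again the highest at 2000 nM. ab, the BTB gene abrupt, fell 2.47-fold, from 3166 ± 181 to 1278 ± 16.7.

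The 4 genes of the temporal identity and growth restraint list that rose were br, brat, Syp and mamo. For mamo, however, the groups overlapped. Its call ended when any 1 library but high-dose library 2 was left out (adjusted p from 0.059 to 0.139). brat, a translational repressor that limits growth, rose from 13087 ± 813 to 25176 ± 3588 (0.94 ± 0.126, adjusted p = 0.000127), and Syp, an RNA-binding protein gene that opposes chinmo in ageing neuroblasts, by 0.54 ± 0.121 (adjusted p = 0.00745). Other zinc finger genes outside the list fell with chinmo. fru, fruitless, was at 4098, 4285 and 4692 and then at 724, 531 and 1348, 5.41-fold lower (adjusted p = 3.25e-05), and ken, a repressor, fell 4.19-fold, from 2051 ± 101 to 500 ± 139.

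The library order within a group recurred among the largest changes. Among the 15 named genes with the largest rises, low-dose library 1 was the 20 nM library nearest to the 2000 nM group in 10, and among the 15 with the largest falls in 11. High-dose library 3 was the one of its group nearest to the 20 nM group in 8 and 12 of these. Over all 706 genes that rose, low-dose library 1 was nearest in 36.8% and high-dose library 3 in 26.9%, and over all 686 that fell in 34.4% and 32.2%. High-dose library 2 was the nearest of its group in 47.2% of all genes that rose and 36.3% of those that fell, and low-dose library 2 in 34.8% and 35.1%.

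Of 31 cell cycle regulator genes tested, 4 rose and 8 fell, with a median log2 difference of -0.147. stg, the Cdc25 phosphatase that triggers mitosis, was at 2672, 3003 and 2956 at 20 nM and at 2084, 2072 and 2048 at 2000 nM, a fall of 0.47 on the log2 scale (SE 0.103, adjusted p = 0.00577) with no overlap. The mitotic cyclins CycB and CycB3 fell by 0.46 and 0.49. dap, an inhibitor of the G1/S kinase, fell by 0.64 (2035 ± 155 to 1301 ± 20.5, adjusted p = 4.89e-05). Cdk4, which drives growth and the G1 phase, rose from 1102 ± 51 to 1573 ± 51.3 (0.51 ± 0.061, adjusted p = 4.15e-05), and E2f1, the G1/S transcription factor, by 0.33 ± 0.067 (adjusted p = 0.0034). The 2 others that rose were E2f2 and ago, and 2 regulators in all rose without low-dose library 1, low-dose library 3, high-dose library 1 or high-dose library 2. For CycE, the G1/S cyclin, the groups overlapped (1335 ± 228 and 1492 ± 244, 95% interval of the log2 difference -0.11 to 0.43).

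Of 68 mitosis and cytokinesis genes tested, none rose and 33 fell, 48.5% against 8.36% over all genes, with a median log2 difference of -0.293 and 6 members above 0. The largest fall was 0.695 on the log2 scale. tum, a centralspindlin subunit of cytokinesis, was at 3422, 3120 and 3043 and then at 2199, 2145 and 2003 (-0.59 ± 0.074, adjusted p = 6.87e-05). ncd, a spindle motor, was at 3255, 3116 and 3009 and then at 2095, 2256 and 1815 (-0.61 ± 0.081, adjusted p = 0.000118). The groups overlapped for neither, and feo, which bundles the midzone microtubules, and aurA, the centrosome kinase, fell by 0.52 and 0.55. Leaving out low-dose library 1, or high-dose library 3, left 18 of the 68 lower, which is the lowest count over the 6 fits without 1 library.

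Of 46 DNA replication genes tested, 9 fell and chif alone rose, with a median of -0.176. RfC4, of the clamp loader, fell from 1071 ± 7.26 to 794 ± 41.3 (-0.43 ± 0.071, adjusted p = 0.000728), and the helicase subunits Mcm2, Mcm3, Mcm5, Mcm6 and dpa by 0.29 to 0.38. The calls of Mcm2, Mcm3 and Mcm5 ended without low-dose library 1 or high-dose library 3, and that of dpa without the latter. Only 3 of the list fell without low-dose library 1 and 2 without high-dose library 3, and chif did not pass in 5 of the 6 fits without 1 library, all but that without high-dose library 2. Nuclear pore genes, with 10 of 27 lower and every one of the 27 log2 differences below 0, rested on the same libraries, since 1 fell without low-dose library 1, 1 without high-dose library 3 and 5 without low-dose library 2. Nup205, of the inner ring, fell by 0.41 ± 0.088 (adjusted p = 0.00531).

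**Figure D3:**
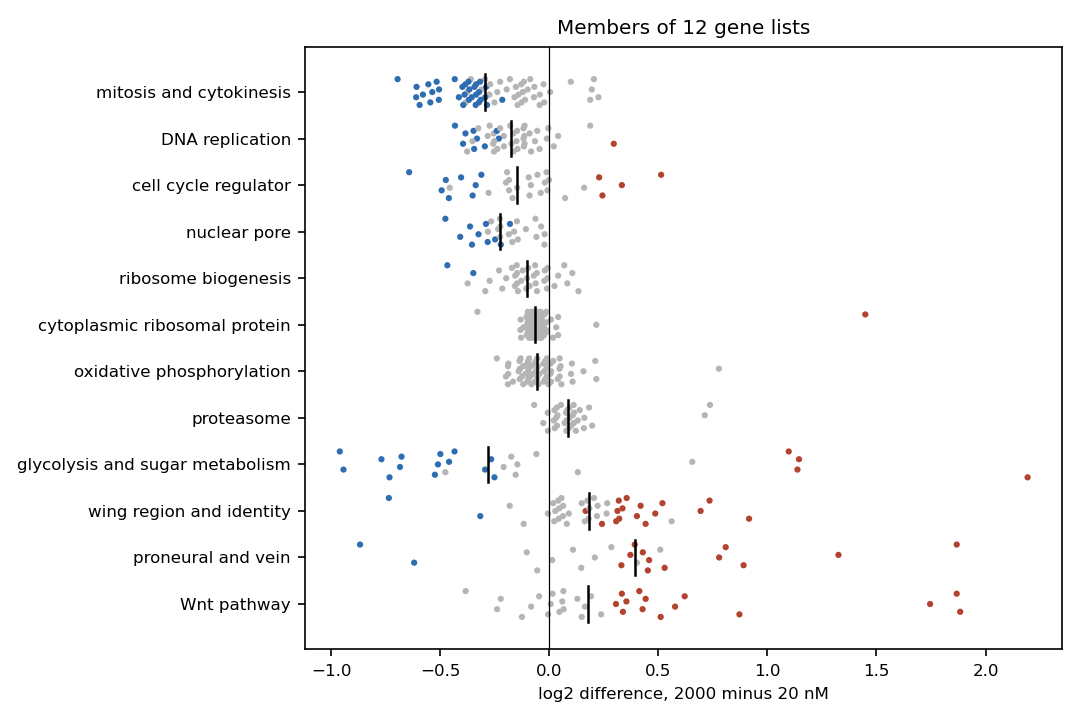
Log2 differences, 2000 minus 20 nM, of every tested member of 12 gene lists, with a bar at the list median; red members rose, blue members fell and grey members did neither. Mitosis genes and glycolysis genes lie mostly left of 0 (medians -0.293 and -0.28), ribosomal protein, respiratory and proteasome genes close to 0, and proneural and wing region genes mostly to the right (0.392 and 0.184).

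Few genes of protein synthesis and respiration passed the threshold. Of 86 cytoplasmic ribosomal protein genes tested, 1 rose and none fell, with a median of -0.063; the 1 was RpS19b, a low-level paralogue, at 18.5 ± 2.97 and 53.5 ± 17.1. Of 66 oxidative phosphorylation genes none passed in either direction (median -0.056), although 4 fell without high-dose library 2, and of 34 proteasome genes none passed (median 0.087, 30 above 0), although 1 rose without high-dose library 1. Of 37 ribosome biogenesis genes 2 fell, RpI1, the largest subunit of RNA polymerase I (-0.47 ± 0.086, adjusted p = 0.00169), and l(2)k09848, whose call ended when any 1 library but low-dose library 3 was left out (adjusted p from 0.0514 to 0.189). The count was 1 without low-dose library 2 or high-dose library 1.

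Of 72 mitochondrial ribosomal protein genes 7 fell, or 9.72%, close to the 8.36% over all genes. They were led by mRpS30 (1059 ± 45.1 to 730 ± 54.8). The count was 4 without low-dose library 3 or high-dose library 1 and 12 without high-dose library 2. Of 33 tRNA synthetase genes ValRS and AsnRS rose and TyrRS-m fell, 9.09% against 17% over all genes. When any 1 library was left out 0 to 1 rose and 0 to 3 fell, and no call of the 3 held in all of those fits. Of 19 autophagy genes Atg18b alone fell, by 0.50 ± 0.123, and none did without low-dose library 2. Of 17 vacuolar ATPase genes tested 8 fell and none rose, with the catalytic subunit gene Vha68-2 at 4481, 4208 and 4370 and then 3156, 2989 and 2982 (-0.52 ± 0.053, adjusted p = 1.1e-05); 4 or 5 fell when any 1 library but high-dose library 2 was left out.

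Of 26 glycolysis and sugar metabolism genes tested, 14 fell and 4 rose. Those that fell were mostly enzymes of the main path and of glycogen. Pfk, the committed step of glycolysis, was at 1693, 1598 and 1941 and then at 825, 986 and 875, 1.95-fold lower (-0.96 ± 0.093, adjusted p = 5.6e-06), and PyK, the last step, fell 1.7-fold, from 5092 ± 312 to 2992 ± 275. Pgi, Tpi, Gapdh2, Pgk, Ald1 and Pglym78 also fell, as did GlyS, which builds glycogen, and GlyP, which breaks it down.

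The 4 that rose act at the ends of the path. Ldh, which turns pyruvate to lactate, was at 337, 434 and 538 and then at 1743, 1946 and 2229, 4.57-fold higher (2.19 ± 0.302, adjusted p = 0.000158). Pdk, the kinase that turns off pyruvate dehydrogenase, rose from 385 ± 74.8 to 818 ± 72.6 (1.10 ± 0.133), and the sugar transporter genes Glut1 and Tret1-1 from 285 ± 38.6 to 631 ± 118 and from 650 ± 264 to 1422 ± 559. The call of Tret1-1 ended without low-dose library 1 (adjusted p = 0.108), low-dose library 3 (0.0537) or high-dose library 3 (0.114). The groups did not overlap for any of the 4.

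Of 14 genes tested in the amino acid transporter list, 3 rose and none fell. The list also holds transporters of other substrates, Indy (citrate) and kcc, and neither passed. path, a growth-promoting transporter of the SLC36 family, was at 788, 788 and 614 and then at 5365, 5162 and 4891, 7.08-fold higher (adjusted p = 3.38e-07). mnd, minidiscs, was at 358, 376 and 344 and then at 2381, 2641 and 2163, 6.64-fold higher (adjusted p = 8.21e-08). CG1607, the third, rose by 0.62 ± 0.088. For all of them the lowest 2000 nM library was above the highest 20 nM library.

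Of 33 insulin, TOR and FOXO genes, 4 rose (ImpL2, bmm, Pdk1 and InR) and 6 fell (REPTOR, scyl, chrb, Thor, Lst8 and melt). InR, the insulin receptor, rose 2.03-fold, from 4448 ± 608 to 9107 ± 1688, and bmm, a triglyceride lipase, 5.13-fold, from 62.3 ± 14.4 to 325 ± 79.5. REPTOR, a transcription factor active when TOR is low, was at 2112, 1844 and 2011 and then at 1163, 863 and 1157 (-0.92 ± 0.132, adjusted p = 0.000223). scyl and chrb, the fly REDD genes that inhibit TOR, fell by 0.80 ± 0.072 and 0.60 ± 0.097. Without any 1 of the 20 nM libraries, or without high-dose library 1, 3 of the list fell in place of 6, and the calls of Thor, Lst8 and melt each ended in 5 of the 6 fits without 1 library.

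In the Wnt, Dpp, EGF receptor, Notch, Hedgehog and Hippo lists more genes rose than fell, unlike in the insulin, TOR and FOXO list. Of 32 Wnt pathway genes tested 14 rose and none fell, 43.8% against 8.6% over all genes, with a median of 0.178. Among those that rose were the ligand genes wg, Wnt2, Wnt4 and Wnt6. wg, which patterns the wing margin, was at 1211, 1216 and 1126 and then at 2233, 2077 and 2195 (0.87 ± 0.081, adjusted p = 3.91e-06), and Wnt4 rose 3.36-fold, from 31.4 ± 7.23 to 106 ± 7.92. nmo, the Nemo kinase that dampens the signal, was at 3447, 3480 and 3572 and then at 13422, 12168 and 13202, 3.69-fold higher (adjusted p = 8.67e-11). nkd, a feedback inhibitor, rose by 0.62 ± 0.093. Without high-dose library 3, 8 of the list rose. The call of sens, also in this list, ended in each of the 6 fits without 1 library. Those of Notum, fz3, Swim, dlp, drl and fz2 each ended in at least 1.

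Of 24 genes tested in the Dpp and activin pathway list, 8 rose and none fell. The 8 include Lis-1, a dynein regulator rather than a pathway member. Without any 1 of the 20 nM libraries, or without high-dose library 1, 6 rose. The calls of Lis-1 and Med ended in each of those fits, and that of Lis-1 also without high-dose library 3 (adjusted p = 0.1). daw, an activin-like ligand, was at 5.06, 4.52 and 4.73 and then at 59, 69.5 and 42.1, 9.83-fold higher (adjusted p = 9.52e-05), from a base of few reads. tok and tld, related secreted proteases, rose by 0.92 ± 0.125 and 0.83 ± 0.189, sog, an inhibitor that binds the ligands, by 0.77 ± 0.137, and dpp by 0.37 ± 0.084 (2191 ± 54.7 to 2835 ± 104). tkv, the type I receptor, did not pass (0.13, 95% interval -0.02 to 0.28).

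Of 24 EGF receptor pathway genes tested, 8 rose and 3 fell. Mkp3, the phosphatase that limits the MAP kinase, rose by 0.63 ± 0.071. The 3 that fell were cic, pnt and aos, and none of their calls held in all 6 fits without 1 library. Without low-dose library 2 or high-dose library 1, 5 rose, and without low-dose library 3 or high-dose library 3, 4 rose. Without low-dose library 1 or 2, 1 fell, and without high-dose library 3, none fell. Without high-dose library 2, 9 rose and 2 fell.

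Of 33 Notch pathway genes tested, 10 rose and 1 fell, with a median of 0.072. mam, the coactivator mastermind, was at 3749, 3479 and 3170 and then at 8353, 7209 and 7741, 2.24-fold higher (adjusted p = 2.93e-07), and numb, an inhibitor of the receptor, was at 4743, 4658 and 4839 and then at 7480, 7331 and 7413 (0.64 ± 0.053). Neither gene's groups overlapped. The 1 that fell was E(spl)m7-HLH, a target of the pathway, and 2 fell without low-dose library 1. The count of 10 came to 6 without low-dose library 2, to 5 without low-dose library 3 and to 4 without high-dose library 3.

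In the Hedgehog and JAK-STAT list 3 of 24 genes rose, hh by 0.27 ± 0.061, shf, which helps Hedgehog to spread, by 0.38 ± 0.079, and upd1, and chinmo fell. Together that was 16.7% of the list, close to the 17% over all genes. The call of upd1 ended in each of the 6 fits without 1 library, with adjusted p from 0.0595 to 0.136. In the Hippo and Fat-Dachsous list 5 of 25 rose (Fbxl7, wts, Rassf, jub and gish), none by more than 0.293 on the log2 scale, and 2 rose without low-dose library 2, low-dose library 3 or high-dose library 3; only the call of jub held in all 6 of those fits. yki, the growth-promoting coactivator, did not pass (0.14, 95% interval -0.01 to 0.29).

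**Figure D4:**
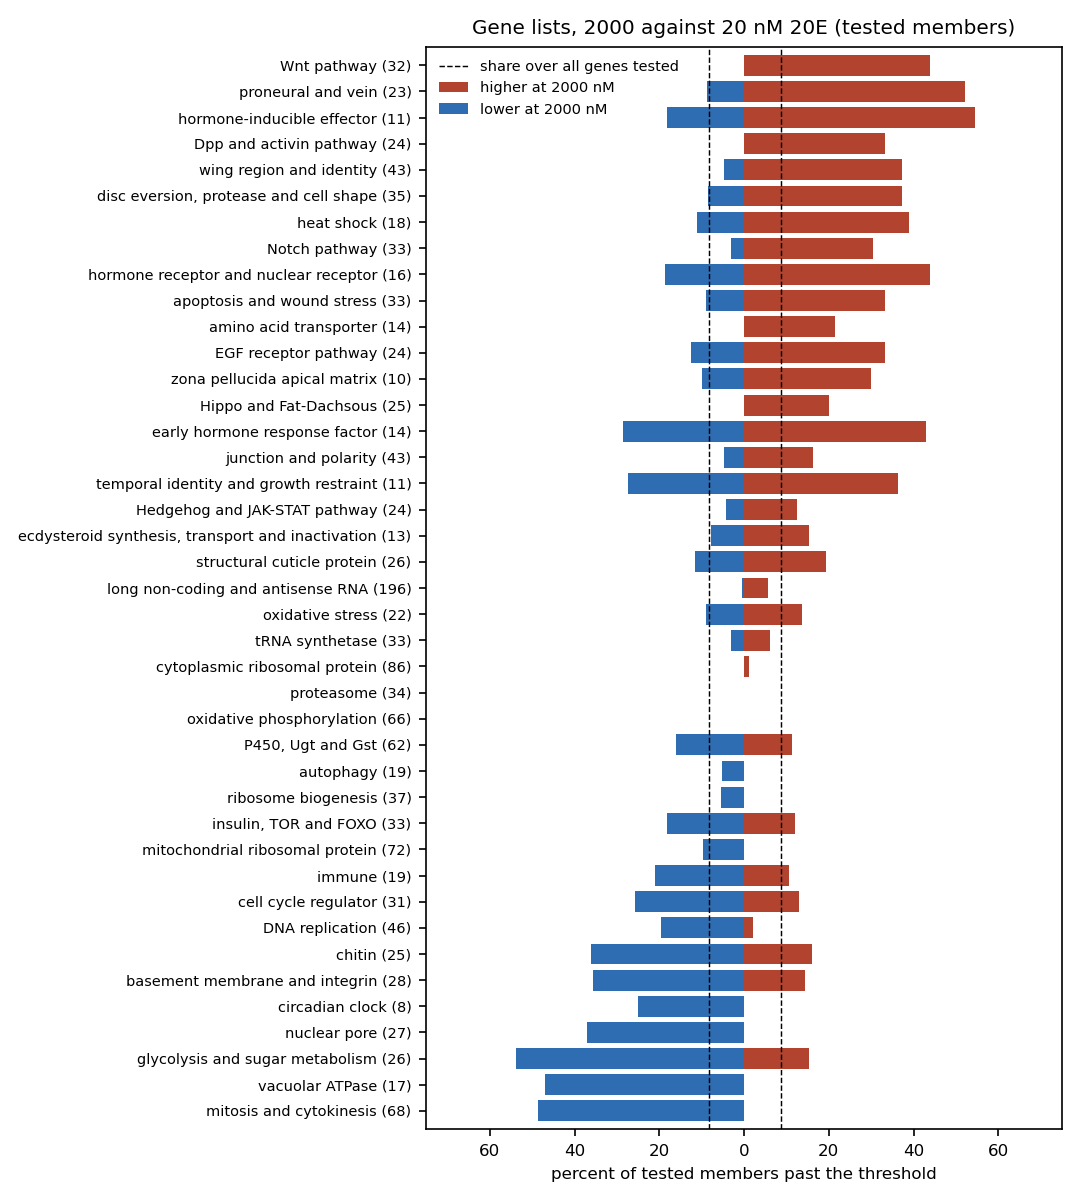
Percent of the tested members of each of the 41 gene lists that rose (red, right of 0) or fell (blue, left of 0) at 2000 against 20 nM, with the number of tested members in brackets and dashed lines at the shares over all genes tested (8.6% and 8.36%). Wnt, proneural and hormone effector lists stand at the top, and glycolysis, vacuolar ATPase and mitosis lists at the bottom.

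Of 23 proneural and vein genes tested, 12 rose and 2 fell, 60.9% in all, with a median of 0.392. Without high-dose library 1, 8 rose, and without high-dose library 2, 13 rose. The call of sens, the largest rise of the list, ended in each of the 6 fits without 1 library (adjusted p from 0.0707 to 0.146). Those of phyl, kn and caup each ended in at least 1. The proneural genes ac and sc rose by 0.81 ± 0.148 and 0.89 ± 0.117; sc was at 192, 212 and 192 and then at 385, 359 and 364. bs, the blistered gene for the fly serum response factor, needed between veins, was at 1096, 978 and 996 and then at 1768, 1758 and 1738 (0.78 ± 0.070, adjusted p = 2.9e-06). emc, which binds and blocks proneural proteins, rose by 0.53 ± 0.069. The groups of these 4 genes did not overlap. chn, a zinc finger gene of sense organ formation, fell from 2942 ± 220 to 1611 ± 78.5 (-0.87 ± 0.072), and net, which suppresses veins, by 0.62 ± 0.095.

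Of 43 wing region and identity genes, all of them tested, 16 rose and 2 fell, and 38 had a positive log2 difference (median 0.184). jing, a zinc finger gene, rose by 0.92 ± 0.101 (4717 ± 162 to 8944 ± 1102), ap, which sets dorsal identity, by 0.49 ± 0.071, and Dll, a distal selector of the limbs, by 0.44 ± 0.082. salm, a Dpp target of the wing pouch, rose by 0.42 ± 0.076 and tsh, of the hinge and notum, by 0.24 ± 0.057, so members from both parts of the disc rose. Bx, an LMO protein gene that limits ap activity, fell by 0.74 (1052 ± 83.6 to 633 ± 62.2, adjusted p = 1.71e-05), and Sox15 by 0.32 ± 0.059. For vg, the wing selector, the groups overlapped (0.15, 95% interval -0.03 to 0.33).

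Of 33 apoptosis and wound stress genes tested, 11 rose and 3 fell. Dronc, the initiator caspase and a known hormone target, was at 897, 965 and 843 and then at 2166, 1857 and 2171, 2.29-fold higher (1.19 ± 0.075, adjusted p = 8.21e-08). hid, an inducer of cell death, rose by 0.61 ± 0.105 and Drice, an executioner caspase, by 0.27 ± 0.064. Atf3, a stress-response factor, fell from 1403, 1541 and 1589 to 507, 473 and 1030 (-1.27 ± 0.241, adjusted p = 0.00228), with high-dose library 3 the highest of its group. Without high-dose library 3, 7 of the list rose. Ilp8, the relaxin-like signal of disc damage, was at 81, 159 and 50.1 and then at 160, 362 and 697; the groups did not overlap but the adjusted p was 0.0601, ranging from 0.0288 to 0.231 over the alternatives.

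Of 18 heat shock and chaperone genes tested, 7 rose and 2 fell. Hsp27, a small heat shock gene known to respond to ecdysone, rose from 12608 ± 1066 to 26696 ± 2904 (1.08 ± 0.154, adjusted p = 0.000213), and Hsc70-3, the chaperone of the endoplasmic reticulum, from 12309 ± 158 to 16242 ± 183. Without a 20 nM library (any 1 of the 3) 4 rose, and without high-dose library 3, 3 rose. Without low-dose library 3 or high-dose library 1, 1 fell. The 2 that fell were Hsp60A, of the mitochondria (-0.36 ± 0.077), and Hsc70-2, at 23.6, 35.1 and 120 and then 0.596, 0 and 21.8. The Hsc70-2 call rested on few reads and ended without low-dose library 3 (adjusted p = 0.0742), high-dose library 1 (0.0663) or high-dose library 2 (0.0608), with log2 differences from -5.23 to -2.98 when low-dose library 3 or high-dose library 2 or 3 was left out.

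Of 22 oxidative stress genes 3 rose, cnc, the fly Nrf2 (0.71 ± 0.125), its inhibitor Keap1 (166 ± 4.62 to 266 ± 4.43) and the catalase gene Cat (0.44 ± 0.075), and Gs1 and Sod3 fell. Only 1 of the list fell without low-dose library 1, high-dose library 2 or high-dose library 3, and none without low-dose library 2, low-dose library 3 or high-dose library 1. Of 62 cytochrome P450, UDP-glycosyltransferase and glutathione transferase genes tested, 7 rose and 10 fell. Ugt35A1 fell 5.75-fold, from 69.9 ± 8.9 to 11.3 ± 0.666, Cyp310a1 from 249 ± 24.3 to 55.6 ± 21.5 and GstE1 from 339 ± 57.4 to 93.7 ± 29.1. Without low-dose library 1 or high-dose library 1, 4 of them rose, and without high-dose library 3, 3 rose.

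Genes of the extracellular matrix moved in both directions. Of 28 basement membrane and integrin genes tested, 10 fell and 4 rose (tnc, Ppn, Mp and scb). tnc, tenectin, a secreted ligand of integrins also found in the apical matrix, was at 1513, 1257 and 869 and then at 25718, 18651 and 18115, 17.4-fold higher (4.12 ± 0.208, adjusted p = 7.06e-09). Ppn, papilin, was at 10251, 9898 and 8561 and then at 34469, 25914 and 29099, 3.1-fold higher. Collagen IV is encoded by Col4a1, which fell by 0.38 ± 0.089, and vkg, which fell by 0.46 ± 0.115, the vkg call ending without low-dose library 1 (adjusted p = 0.053) or high-dose library 3 (0.0537). Of the integrin alpha subunit genes, if fell from 1278 ± 87.8 to 727 ± 57.1 (-0.81 ± 0.088, adjusted p = 1.71e-05) and mew by 0.43 ± 0.105. Another such gene, scb, was among the 4 that rose.

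Of 35 disc eversion, protease and cell shape genes, 13 rose and 3 fell (Timp, Moe and dia; 1 fell without low-dose library 1 or 2, and the call of dia also ended without high-dose library 2). AdamTS-A, a secreted metalloprotease, was at 1010, 866 and 800 and then at 5008, 4622 and 4203, 5.17-fold higher (2.37 ± 0.093, adjusted p = 7.01e-10). Np, the notopleural serine protease, rose 4.07-fold, from 504 ± 19 to 2054 ± 130, and Mmp2 by 1.11 ± 0.136, while Timp, the inhibitor of the matrix metalloproteases, fell by 0.96 ± 0.264. The Timp call ended without low-dose library 1 (adjusted p = 0.101), low-dose library 2 (0.0881) or high-dose library 3 (0.0852). jar, myosin VI, rose by 1.35 ± 0.100 and cv-c, crossveinless c, by 0.93 ± 0.133.

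Of 10 zona pellucida and apical matrix genes tested, tnc, neo and pio rose and nyo fell. neo was at 2363, 2421 and 2327 and then at 10770, 10122 and 9510, 4.27-fold higher (2.09 ± 0.062, adjusted p = 4.04e-11), and pio, known from tracheal tubes, rose by 0.95 ± 0.062. Of 25 chitin genes tested, 4 rose and 9 fell. Gfat1, the first enzyme of the path to UDP-N-acetylglucosamine, was at 6568, 6106 and 6214 and then at 2414, 2382 and 2551, 2.57-fold lower (-1.36 ± 0.064, adjusted p = 3.61e-09). Gnpnat and mmy, later enzymes of the same path, fell by 0.47 ± 0.109 and 0.56 ± 0.069, while Cht5 and Cht10, chitinases, rose by 1.26 ± 0.098 and 0.80 ± 0.167. Cht11 and kkv, the chitin synthase gene, made up the 4; neither call held in all 6 fits without 1 library, and 2 genes rose without low-dose library 3 or high-dose library 1.

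Of 26 structural cuticle protein genes tested, 5 rose and 3 fell, led by Cpr49Ac, at 853, 491 and 517 and then 4925, 4679 and 3683 (2.87 ± 0.187, adjusted p = 1.14e-07). Without low-dose library 1, low-dose library 2 or high-dose library 1, 3 rose, and without low-dose library 3 or high-dose library 3, 2 rose. A further 40 cuticle genes of the list were below the filter. Of 43 junction and polarity genes 7 rose and 2 fell, the septate junction genes vari (-0.39 ± 0.066) and Fas3 (-0.36 ± 0.069), and 4 rose without low-dose library 1, low-dose library 3 or high-dose library 1.

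Of 8 circadian clock genes tested Pdp1 and jet fell, Pdp1 2.21-fold, from 413 ± 68.4 to 185 ± 9.76; 1 fell without low-dose library 1, low-dose library 3, high-dose library 2 or high-dose library 3, and 1 rose without high-dose library 2. Of 19 immune genes tested 4 fell (PGRP-SA, Dif, Tep2 and key) and Tep4 and cact rose, with 1 rising without high-dose library 2 and none without any other library; the call of Tep2 ended without low-dose library 2, high-dose library 2 or high-dose library 3. Of 196 long non-coding and antisense RNA genes tested 11 rose and 1 fell, 6.12% against 17% over all genes. CR33938, at 918 ± 85.4 and 2729 ± 140, was among those that rose. Without low-dose library 1, high-dose library 1 or high-dose library 3, 2 fell, and without high-dose library 2, 3 fell. Of 149 transposable element entries tested 4 rose and 1 fell, where 8.6% and 8.36% of all genes did.

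Outside the lists, the largest rises among named genes included nemy, a cytochrome b561 gene, at 70.8, 73.5 and 67 and then 526, 571 and 523, wbl, for a protein of the endoplasmic reticulum, 5.36-fold (380 ± 26.3 to 2044 ± 144), and Glut4EF, 5.43-fold (156 ± 8.45 to 852 ± 69.2), with 27.4% of its exon length shared with CG46467. Large falls included Osi14, of the Osiris family, from 163 ± 28.2 to 35.1 ± 16, Vajk2 from 1469 ± 196 to 336 ± 86.6, Vajk3 from 1635 ± 166 to 516 ± 153, Picot, a phosphate transporter gene, from 51.3 ± 4.11 to 11.7 ± 4.31, and Tep3, of the thioester protein family, from 666 ± 28.3 to 193 ± 48.8. Measured as a difference in normalised count, which favours long and abundant transcripts, the largest gains were those of ImpE1, br, Ppn, tnc and ImpE2. The largest losses were those of Lk6, a kinase gene (30695 ± 2052 to 24590 ± 1094), Pdcd4 (17328 ± 1191 to 11309 ± 64.8), bun, a TSC22 gene that promotes growth (11880 ± 472 to 6255 ± 1194), Msp300, the fly nesprin (13734 ± 653 to 8313 ± 2061), and SP1173 (8149 ± 114 to 2822 ± 408). The Lk6 call ended without low-dose library 1 (adjusted p = 0.0727) or high-dose library 3 (0.0745).

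Other genes differed between 0 and 20 nM and little between 20 and 2000 nM. The comparison of 20 with 0 nM shares its 20 nM libraries with that of 2000 with 20 nM, so their values are set side by side and no relation between them is drawn. At 20 against 0 nM, 251 genes were higher and 126 lower, 3.06% and 1.54% of those tested. Of these, 40 and 25 had a 95% interval for 2000 minus 20 nM within 0.5 of 0 on the log2 scale, as had 60.6% of all genes tested. Within that interval, 12 of the 40 rose further at 2000 nM and 11 of the 25 fell further, among them Cpr, from 1204 ± 29.9 to 979 ± 55.5 (adjusted p = 0.00927), and melt. Myc, the growth regulator, had a mean of 1759 without hormone and was at 3338, 3058 and 2842 at 20 nM and at 3106, 2361 and 3073 at 2000 nM, so the doses overlapped (-0.12, 95% interval -0.38 to 0.13); 40.9% of its exon length lies opposite CG12535, and the strand setting is not given in the sources used here. Qsox2 had means of 865, 1885 ± 23.2 and 2043 ± 213 at 0, 20 and 2000 nM.

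Indy, a citrate transporter, had means of 1644 without hormone, 977 ± 78.7 at 20 nM and 933 ± 52.3 at 2000 nM (95% interval of the last difference -0.24 to 0.11), and verm, a chitin deacetylase, of 14210, 9699 ± 649 and 9657 ± 241. Piezo, a mechanically gated channel, had means of 2444, 1452 ± 91.5 and 1462 ± 352. In these 3 genes the 20 and 2000 nM libraries overlapped.

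In 8 genes the 2 steps had opposite signs and both passed the threshold. The 20 nM libraries enter both steps with opposite sign, so error in their mean favours such a shape. Fits without 1 library are given only for the step from 20 to 2000 nM. pigs was higher at 20 than at 0 nM and was at 3872, 4145 and 3810 at 20 nM and at 2284, 1824 and 2470 at 2000 nM, with a mean of 2118 without hormone. net, Eip74EF and Fatp1, a fatty acid transporter, had the same shape, though for Fatp1 the fall at 2000 nM ended without low-dose library 3 (adjusted p = 0.0563) or high-dose library 1 (0.0535). sca, the scabrous gene of sense organ spacing, had the opposite one, with means of 1419, 1107 ± 42.7 and 1521 ± 57.6 at 0, 20 and 2000 nM. ich fell from a mean of 49.3 without hormone to 5.11 at 20 nM and was at 16.9 ± 2.45 at 2000 nM, all on few reads.

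**Figure D5:**
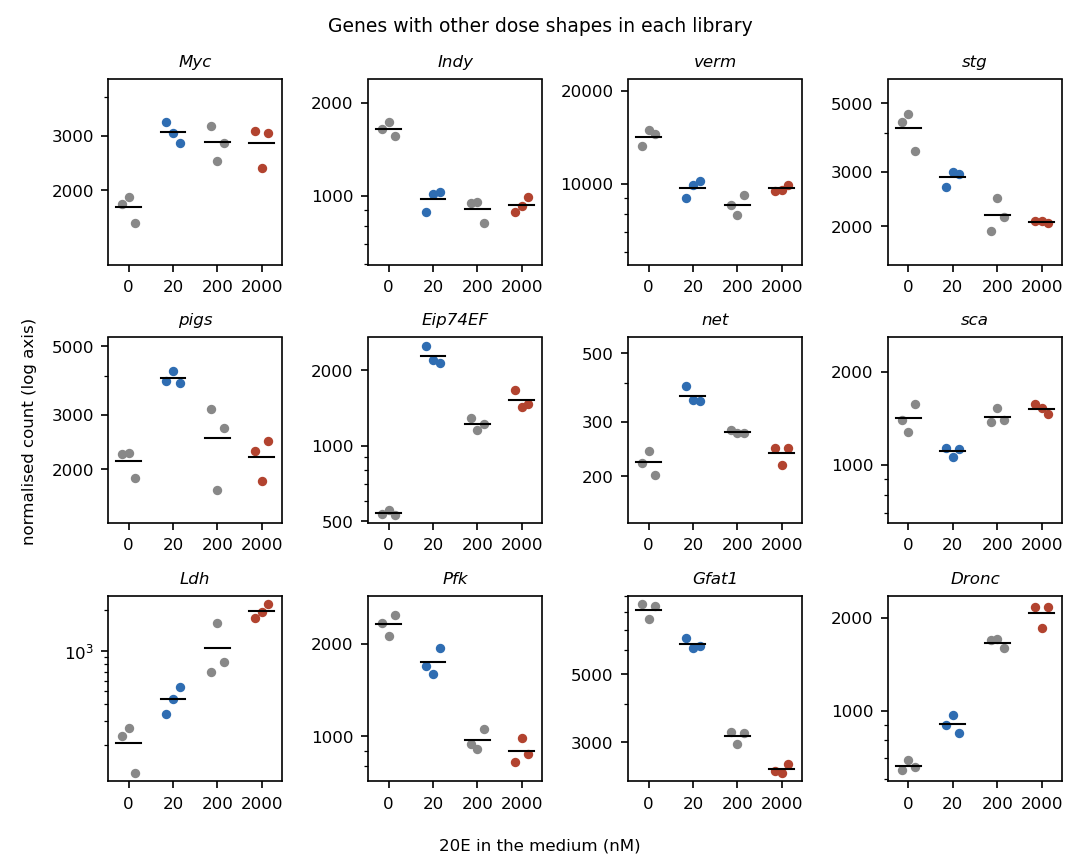
Normalised counts (log axis) in each library at 0, 20, 200 and 2000 nM 20E of 12 genes, with a bar at the mean of 3 libraries, blue points for 20 nM and red for 2000 nM. Myc, Indy and verm differ between 0 and 20 nM and overlap between 20 and 2000 nM, pigs, Eip74EF and net are highest at 20 nM, sca is lowest there, Ldh and Dronc increase with dose, and stg, Pfk and Gfat1 decrease.

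Some markers of other cell types and of other tissues passed the threshold as well. In bulk discs fewer cells of a type and less RNA per cell cannot be told apart. Among 11 tested markers of the adult muscle precursors, the cells that lie under the notum epithelium, htl, stumps, twi and Mef2 fell and Ama rose. htl, their FGF receptor, was at 509, 517 and 499 and then at 342, 278 and 324 (-0.695 ± 0.102, adjusted p = 0.000258), and stumps, its adaptor, fell by 0.62 ± 0.093. The Mef2 call ended when any 1 library but high-dose library 3 was left out, with adjusted p from 0.0875 to 0.142. The summed level of the list was 11486 to 12064 at 20 nM and 15792 to 17676 at 2000 nM, of which Ama made up 5284 ± 241 and 11633 ± 1261.

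Of 6 tested blood cell markers only Ppn rose, which is also in the basement membrane list (1 marker fell without high-dose library 1). The log2 differences of Pxn, Hml, PPO1 and PPO2 were -0.61, -1.12, -1.22 and -1.53, none past the threshold. Ppn and 1 other of the 6 were above 0, and the list median was -0.868. The summed level, mostly Ppn, was 9011 to 10799 and then 26287 to 35105; srp, eater, lz, He, NimB4, NimC1 and Sr-CI were below the filter, though none was at 0 in all 6 libraries. Of 9 fat body markers FASN1 rose, with sums of 2112 to 2685 and 3644 to 5383. Of 9 tracheal markers Cht5, pio and trh rose (36311 to 40438 and 39870 to 45554), with the trh call lost without low-dose library 1, low-dose library 2, high-dose library 1 or high-dose library 3 (adjusted p from 0.0683 to 0.0947). Of 4 tested neuron and glia markers elav and loco rose (2906 to 3167 and 3490 to 4452; 1 rose without low-dose library 1, low-dose library 3 or high-dose library 3, and the call of loco also ended without high-dose library 2), and repo, brp, nSyb, Syt1, fne, gcm and onecut were below the filter.

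Neither of 2 tested salivary gland markers passed (145 to 221 and 210 to 301), although 1 rose without low-dose library 3 or high-dose library 2. Of 5 tested markers of other discs eya and ss rose and so fell (1629 to 1741 and 2007 to 2093; 1 rose without low-dose library 3, high-dose library 1 or high-dose library 3). Of the 9 wing disc epithelium markers Wnt6, ap and nub rose (40383 to 44030 and 43824 to 52813). The part of these cell types in the other results was not tested.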

How the data were processed

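RNA of cultured wing discs was measured by RNA-seq in 12 libraries, 3 per dose. The deposited values are labelled normalised counts and are treated here as a signal. A factor per library turned 100% of its values into whole reads. That the authors scaled read counts by library is inferred from this. The submitters' processing notes name DESeq2 1.32.0, Subread 2.0.1, HISAT2 2.1.0 and SAMtools 1.13; the genome build, strand and other settings were not given in the sources used here. After 1 was added, log2 values of all 12 libraries entered a limma 3.58.1 fit (R 4.3.3) with 1 mean per dose, 8 residual degrees of freedom and an intensity trend. Tests were two-sided and moderated, with Benjamini-Hochberg adjustment over the 8206 genes that had a normalised count of 10 or more in 3 or more of the 6 libraries compared. Errors are SD of 3 libraries for levels and SE for log2 differences. Exon overlaps came from Ensembl's BDGP6.54 annotation, in which 12167 of 12216 identifiers were found. Scripts were tested on simulated data.

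The comparison, its 41 gene lists and 8 marker lists were chosen with earlier results of these data known. Genes were named by a rule: up to 15 per direction by size of difference (mean of at least 50, groups apart, a symbol that is not a CG or CR number), up to 3 per list by adjusted p, genes level above 20 nM, genes reversing, the largest differences in count, and a fixed set of hormone and growth genes, 156 in all. Other list members named were chosen after their values were seen. Replicate numbers were not used as a block. Alternatives were the value added, the filter, the scaling, the variance model, the libraries fitted, limma-voom on whole reads and each library left out.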

Additional observations from a re-analysis of the deposited data

How the results depend on the processing

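The counts of 706 higher and 686 lower genes kept within 1.5 times under every alternative run. Adding 0.5 or 5, filtering at 50, filtering over 12 libraries or not filtering gave 673 to 731 higher and 610 to 691 lower. Fitting only the 6 libraries gave 597 and 538, no intensity trend 626 and 592, TMM scaling 636 and 749, and limma-voom on whole reads 711 and 870. Leaving out 1 library gave 498 to 704 higher and 492 to 694 lower. With a replicate block the counts were 924 and 877. The labels do not say that the numbers pair samples. Deviations from the dose mean correlated at 0.272, -0.0298 and 0.420 between same-numbered libraries of the 2 doses. Between unlike-numbered ones they correlated at -0.4125 to 0.1817. Whether same-numbered libraries share a batch was not tested. The next counts cover the genes named by rule, not the other list members named above. Of 2457 recomputed values of these genes, none reversed, 60 lost and 8 gained a call. Among the 142 of them with a call, 16 lost it at least once. Many of these genes were named for a large difference or small adjusted p in the same fit, so they do not represent all calls. Of all 1392 calls, 940 to 1177 were shared with the fits without 1 library. The planned edgeR and DESeq2 alternatives were not run, and limma-voom was the only test of the whole reads; promoter motifs were not run. Depth limits low genes most: the median SE was 0.317 among the 2052 genes of lowest level (means up to 137) and 0.0803 among the 2052 of highest level.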
